A study of Homo sapiens with 26 samples.

Results

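Pool CF2 is a CRISPR knockout library aimed at transcriptional cofactors: subunits of the Mediator, the chromatin remodellers, the enzymes that write and erase histone marks, cohesin and condensin, and the basal transcription machinery. Its members are all targets named in its gene column other than the 7 guide sets that the pools share as controls. They number 105, of 984 target measurements in the 10 pools of the series. The 105 targets carry 1115 guides and the control sets another 67. The target names bear out the label: 11 of them are Mediator subunits and 10 belong to histone acetyltransferases or their complexes.

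The study used RH4, an established alveolar rhabdomyosarcoma line labelled PAX3-FOXO1+. At day 7 after infection with a pool, drug-selected cells were stained for MYH, the myosin heavy chain of muscle that has differentiated, and sorted into an MYH high and an MYH low population. Guide cassettes were then amplified from the genomic DNA of both and sequenced. Each population of each pool is 1 sample, so no difference in this pool has a replicate check, no p-value between conditions can be given, and each spread given is an SD over guides, which share the cells of 1 sort.

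Alveolar rhabdomyosarcoma cells resemble muscle precursors that do not complete differentiation. The PAX3-FOXO1 fusion joins the DNA-binding part of the developmental factor PAX3 to the activating part of FOXO1 and works through enhancers, where cofactors are recruited. The Mediator carries signals from enhancer-bound factors to RNA polymerase II. Cohesin, loaded onto chromatin with the help of NIPBL, folds enhancers and promoters into shared loops, SWI/SNF remodellers move nucleosomes, and corepressor complexes bring histone deacetylases to genes. A guide whose knockout makes a cell more likely to stain for MYH becomes more frequent in the MYH high population, and one with the opposite effect becomes less frequent. Guides that alter growth or survival differently in the sorted populations can also change in frequency, so a ratio here is a ratio of guide frequencies and not a level of MYH.

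The CF2 samples had the highest totals of the 10 pools in both populations, with 130085483 reads in MYH high and 166032777 in MYH low. The lowest count of any guide was 10372 in MYH high and 3260 in MYH low, and the median count per guide was 92997 and 128724. Both lowest counts belong to 1 guide of a control set. For the member guides alone, counting error came to a median of 0.0062 on the log2 scale per guide and at most 0.018. The median SD over guides of a member was 0.19. That error covers counting only, since reads amplified by PCR without molecular identifiers are not independent molecules. Counts were scaled to CPM, each guide's share of its sample's reads times 1e+06. The value of a guide is log2 of its CPM in MYH high over its CPM in MYH low, with 1 CPM added to each and the median of all CF2 guides set to 0. For a target, the median of its guides is given. Folds below are taken from these centred values, and so are relative to the median CF2 guide. CPM and sums of CPM are not centred, so their ratios differ from the folds.

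The fusion-directed guides were the first check of the labels. Guides of the set PAX3_Fusion_DBD stood at a median of 4.53 ± 0.97 (SD over 10 guides), a 23.2-fold excess in MYH high after centring. Those of FOXO1_fusion stood at 4.23 ± 0.81 (SD over 11 guides), an 18.7-fold excess. All 21 guides lay above 0, from 2.10 to 5.27. The guide with the highest ratio had 5422 CPM in MYH high and 154 CPM in MYH low. The fusion guides together took 8.29% of all reads in MYH high (exact 95% binomial interval 8.29 to 8.30) and 0.502% in MYH low (0.501 to 0.503). These intervals cover read counting only, and not the sort or the cells sampled. Every other value in this pool is small beside those of the fusion guides.

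Both fusion sets stood higher in CF2 than in any of the other 9 pools, which carried the same guides in separate sorts. PAX3_Fusion_DBD ran from 2.71 to 3.84 in the others and FOXO1_fusion from 2.25 to 3.43. The highest of the other pools was 0.70 below CF2 for the first set and 0.79 below it for the second. Of the 11 FOXO1_fusion guides 10 had their highest value in CF2, and of the 10 PAX3_Fusion_DBD guides 8 did. The share of fusion reads in MYH low was also lower in CF2 than in the other pools, where it ran from 0.558% to 1.32%, while the share in MYH high was exceeded by 1 pool, DR1, at 9.17%. The pools differ in library, sort and depth, so a difference between pools cannot be told apart from a difference between sorts.

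**Figure D1:**
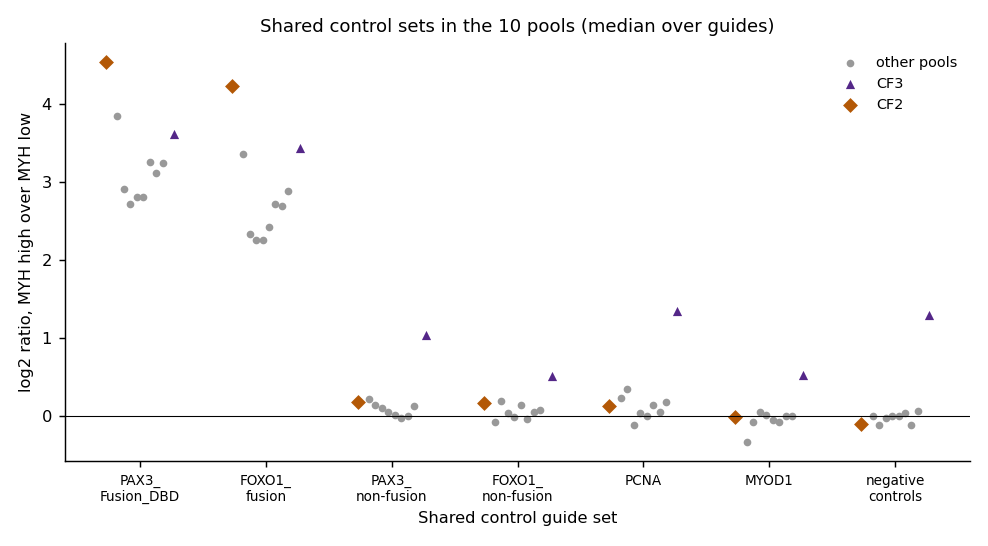
Log2 of MYH high over MYH low (vertical axis) for the 7 control guide sets that the pools share (horizontal axis), each point being the median over the guides of a set in 1 pool. Diamonds are CF2, triangles CF3 and circles the other pools: the CF2 diamonds top both fusion sets at 4.53 and 4.23 and lie between -0.09 and 0.18 in the other sets.

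The remaining control sets in CF2 lay near 0. The sets PAX3_non-fusion and FOXO1_non-fusion had medians of 0.18 ± 0.16 (SD over 10 guides) and 0.18 ± 0.20 (SD over 9 guides). PCNA, the replication clamp and a fitness control, had 0.13 ± 0.22 (SD over 7 guides). MYOD1, the myogenic master regulator, had -0.01 ± 0.41 (SD over 10 guides), a wide spread that came from 1 guide. That guide stood at 1.19, with 1830 CPM in MYH high and 881 CPM in MYH low, while the other 9 lay between -0.26 and 0.25. In the other pools the same guide had a median of 0.14 and a highest value of 0.95, in CF3, or 0.53 without CF3. The 10 negative-control guides had a median of -0.09 ± 0.21 (SD), from -0.34 to 0.41, and give the width of values for guides without an intended target. The upper end is 1 guide, with 261 CPM in MYH low, that ran from -2.51 to 4.43 in the other pools. The next highest stood at 0.16. Each count below of guides above every negative-control guide therefore rests on that 1 guide.

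A cofactor of CF2 is described below as higher or lower only where its value is at least 0.3 away from 0, which is 1.23-fold, over at least 3 guides. GTF2H2, a subunit of the repair and transcription factor TFIIH, has only 2 guides, at -0.17 and 0.30, and is left out of the counts, so that 104 members remain. Of these, 2 were higher in MYH high (1.92%), CDK1 and NIPBL, and 2 were lower (1.92%), MED26 and MED7. In the other 9 pools, 13 of 879 targets were higher (1.48%) and 5 were lower (0.569%) by the same rule. The share called in CF2 is therefore near the background for the higher side. For the lower side 2 targets are too few to set apart from it, and those of CF2 are both Mediator subunits. The split between the sides depends on the point set as 0. With the negative-control guides at 0, 9 targets were higher and 0 lower, the 7 added being SMARCB1 and SAP18 (0.38 each), HMGA1 (0.34), YEATS4 (0.32), NCAPH, SMARCA4 and HDAC3 (0.31 each). Without centring, where the median of all CF2 guides was -0.13, 2 were higher and 10 lower. With CPM recomputed over member guides alone, the uncentred median of those guides was -0.02.

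The 104 values had a median of -0.01 and an SD of 0.15, with 49 above 0 and 55 below. Within 0.1 of 0 lay 59 targets, and 89 lay within 0.2. Of the 1115 member guides, 52 (4.66%) lay above every negative-control guide and 56 (5.02%) below every one. The values just inside and outside the rule were NIPBL at 0.51 and SMARCB1 and SAP18 at 0.29 on the upper side, and MED7 at -0.34 and POLR2I at -0.27 on the lower side. The SD over target values was 0.15 in pool CF3 and 0.11 in CF1, the other pools with this prefix, and from 0.06 in DR2 to 0.19 in TF1 elsewhere.

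**Figure D2:**
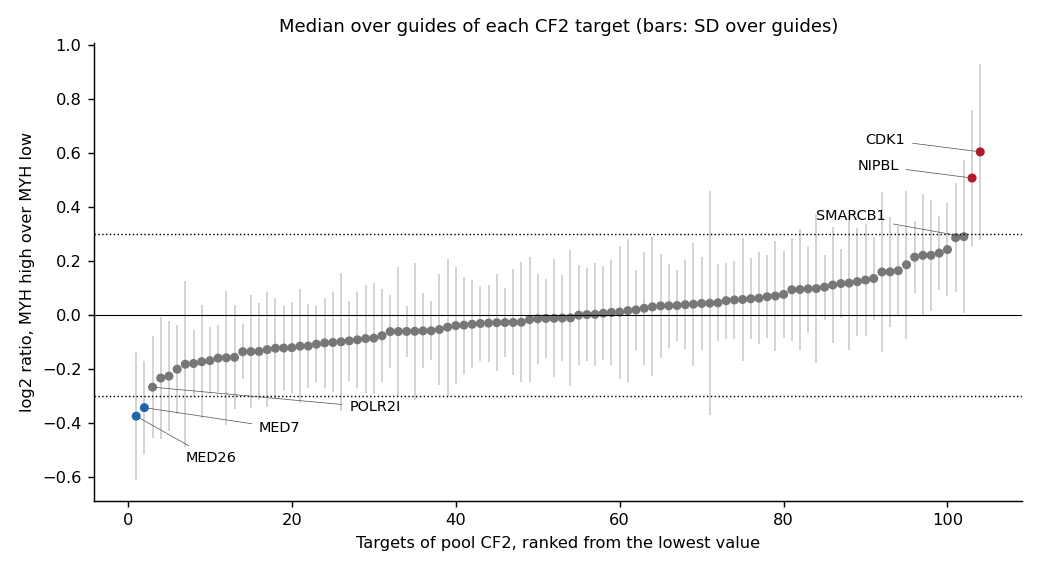
The 104 CF2 targets with at least 3 guides, ranked along the horizontal axis, with the median log2 of MYH high over MYH low on the vertical axis and bars for the SD over guides. Dotted lines mark 0.3 and -0.3: CDK1 (0.60) and NIPBL (0.51) lie above the upper line, MED7 (-0.34) and MED26 (-0.37) below the lower one, and SMARCB1 (0.29) and POLR2I (-0.27) just within.

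A second description does not use the size of a value and asks whether all guides of a target lay on the same side of 0. All guides lay above 0 for 5 of 104 targets (4.81%) in CF2 and for 22 of 879 (2.5%) in the other pools. The 5 were NIPBL, SAP18, HDAC3, KDM8 and EHMT2. All guides lay below 0 for 2 targets (1.92%), MED26 and ASH1L, against 9 of 879 (1.02%) in the other pools. Only NIPBL and MED26 met both descriptions. These counts move with the point set as 0: with the negative-control guides at 0 they become 10 above and 1 below, and without centring 0 above and 15 below. The lowest guide stood at 0.12 for SAP18 and close to 0 for HDAC3 (0.01), NIPBL (0.02), EHMT2 (0.02) and KDM8 (0.02).

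CDK1, the cyclin-dependent kinase that drives entry into mitosis, had the highest value of the pool. Its 10 guides summed to 4334 CPM in MYH high and 3354 CPM in MYH low. The median log2 ratio was 0.60 ± 0.33 (SD over 10 guides), a 1.52-fold excess in MYH high after centring. The guides stood at -0.02, 0.22, 0.32, 0.44, 0.53, 0.68, 0.80, 0.83, 0.90 and 0.98, so 9 lay above 0 and 7 above every negative-control guide. The guide at 0.98 had 228 CPM in MYH high and 127 CPM in MYH low.

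CDK1 guides were also scarce. Their median in MYH low was 323 CPM, the lowest of the 104 members, whose median was 788 CPM. In MYH high the CDK1 median was 451 CPM, where MED26 (348 CPM) and RAD21 (396 CPM) were lower. CDK1 is required for division in most cells. The frequency of each guide before selection was not analysed here, so the part of guide loss or of starting frequency in this value was not tested. Over the 104 targets the value had a Spearman correlation of -0.17 with the median guide CPM in MYH low, a description only, since MYH low enters both.

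NIPBL, which loads cohesin onto chromatin, came next. Its guides summed to 9403 CPM in MYH high and 7355 CPM in MYH low. The median log2 ratio was 0.51 ± 0.25 (SD over 10 guides), a 1.42-fold excess after centring. All 10 guides lay above 0, from 0.02 to 0.80, and 7 lay above every negative-control guide. Its guides were not unusually scarce in MYH low, at a median of 670 CPM, the 21st lowest of 104. CDK1 and NIPBL kept their side of the rule under every centring, count minimum, pseudocount and summary over guides that was tried.

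Of the cohesin ring itself the pool held 1 subunit, RAD21, with the associated STAG1, and neither passed the fold. RAD21, the kleisin subunit that closes the cohesin ring, stood at 0.09 ± 0.19 (SD over 10 guides), and STAG1, one of the alternative cohesin subunits that bind it, at 0.02 ± 0.26 (SD over 10 guides). Among the condensin subunits, which compact chromosomes for mitosis, NCAPH had 0.22 ± 0.21 with 7 of 10 guides above 0, SMC4 0.09, NCAPD3 -0.03 and NCAPH2 -0.06. Over the 6 members of the list of cohesin, condensin and CTCF, which leaves out NCAPH2, the median was 0.09, with 5 above 0 and 1 past the fold, beside a median of -0.01 over all members. Without centring the list median was -0.04. NIPBL was the only one of these 6 whose guides all lay above 0.

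SWI/SNF members spread over both sides of 0. SMARCB1, the core subunit lost in rhabdoid tumours, had 0.29 ± 0.28 (SD over 10 guides), with 8 guides above 0 and 2 below, from -0.32 to 0.60. Its guides summed to 9444 CPM in MYH high and 8652 CPM in MYH low. SMARCA4, an ATPase of the complex, had 0.22 ± 0.23 (SD over 21 guides), with 19 guides above 0 and 6 above every negative-control guide. ARID2 and PBRM1, subunits of the PBAF form, stood at 0.08 and -0.03, ACTL6A, an actin-related subunit, at -0.06, and DPF2, a subunit of the BAF form, at -0.11. The median of the 6 was 0.03, or -0.11 without centring, and none passed the fold.

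The guides of SMARCA4 were uneven along their running numbers. The 10 guides with the lower numbers had a median of 0.12, and 1 of them lay above every negative-control guide. The 11 with the higher numbers had a median of 0.41, and 5 of them did. Neighbouring SMARCA4 guides had a Spearman correlation of 0.41 over 20 pairs, against -0.10 over the 1005 neighbouring pairs of all members. SMARCA4 was singled out after its values were seen, and whether the numbers follow the position of the cuts along the gene is not given in the sources used here. Other targets with 15 or more guides split too. HCFC1 ran the other way by nearly as much, with a median of 0.16 over its 10 lower-numbered guides and -0.10 over its 10 higher-numbered ones. CTDP1 had -0.31 over 7 lower-numbered guides and -0.10 over 8 higher-numbered ones.

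The medians of corepressors and histone deacetylases were above 0 without passing the fold. SAP18, a subunit of the SIN3 corepressor complex that also takes part in RNA splicing, had 0.29 ± 0.20 (SD over 10 guides), with all 10 guides between 0.12 and 0.65. Its guides summed to 8240 CPM in MYH high and 6835 CPM in MYH low. SAP18 did pass the fold by the mean over guides, at 0.34, and by a mean weighted by counts, at 0.40. SUDS3, another SIN3 subunit, stood at 0.13 with 7 of 10 guides above 0. TBL1XR1, a subunit of the NCoR corepressor complex, stood at 0.12 with 6 of 10. All 3 members of the corepressor list were above 0, with a median of 0.13, and this median became -0.003 without centring.

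HDAC3, the deacetylase of the NCoR complex, had 0.21 ± 0.13 (SD over 10 guides), and all 10 guides lay above 0, from 0.01 to 0.42. The spread over HDAC3 guides was among the smaller ones of the pool, and its sums were 8883 CPM in MYH high and 8487 CPM in MYH low. The small test library of the series carried HDAC3 with 2 guides under other IDs, at 0.10 each. SIRT4, a mitochondrial sirtuin, had 0.19 ± 0.27 (SD over 10 guides), with 6 guides above 0 and 1 at -0.51.

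**Figure D3:**
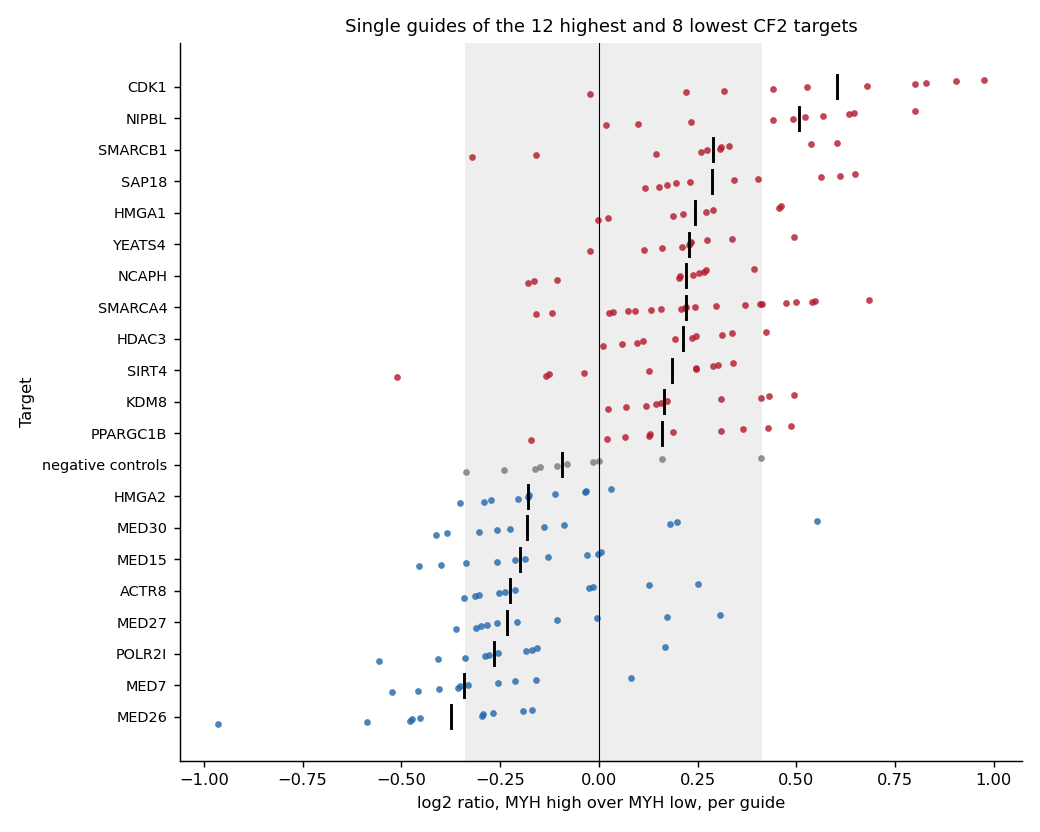
Log2 of MYH high over MYH low for each guide (horizontal axis, 1 point per guide) for the 12 CF2 targets with the highest medians, the negative controls and the 8 with the lowest medians (vertical axis), with black bars at the medians. The grey band spans the negative-control guides, from -0.34 to 0.41, its right edge being set by 1 guide. To its right lie 7 guides each of CDK1 and NIPBL, and to its left 5 each of MED26 and MED7.

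Mediator subunits took the other end of the pool. MED26, the subunit that recruits elongation factors to the polymerase, had the lowest value, -0.37 ± 0.24 (SD over 10 guides). After centring this was a 1.30-fold excess in MYH low. Its guides summed to 3780 CPM in MYH high and 5336 CPM in MYH low. All 10 guides lay below 0, from -0.96 to -0.17, and 5 lay below every negative-control guide. The guide at -0.96, the lowest of all member guides, had 138 CPM in MYH high and 297 CPM in MYH low. MED26 guides were also scarce, at a median of 507 CPM in MYH low, the 4th lowest of 104, and the part of guide loss was not tested.

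MED7, of the middle module of the Mediator, had -0.34 ± 0.17 (SD over 10 guides), a 1.27-fold excess in MYH low after centring. Its sums were 5772 CPM in MYH high and 7924 CPM in MYH low. Of its guides 9 lay below 0 and 5 below every negative-control guide. Its median guide level in MYH low, 790 CPM, was near the median of all targets. With the negative-control guides at 0, MED26 stood at -0.28 and MED7 at -0.25 and neither passed the fold. By the mean over guides MED26 stood at -0.42, and MED7, at -0.298, fell short of the fold.

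The other 9 Mediator subunits of the pool did not pass the fold. MED27 stood at -0.23 with 8 of 10 guides below 0. MED15, a tail subunit that activators bind, stood at -0.20 ± 0.16 (SD over 10 guides) with 9 of 10 guides below 0. MED30, of the head module, had -0.18 ± 0.31, and 1 of its guides was at 0.55. The tail subunits MED24 and MED23 had -0.12 and -0.05, and MED19 and MED28 both had -0.09. MED1, which binds nuclear receptors, stood at -0.01 over 20 guides. MED12L, a paralogue of the kinase-module subunit MED12, was the exception with 0.04, with guides from -0.40 to 0.88 and the highest SD over guides of the members, 0.41.

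As a list, the 11 Mediator subunits had a median of -0.12, with 10 below 0 and 2 past the fold on the lower side, and 34 of 120 guides (28.3%) lay above 0. Over all 104 members the median was -0.01, 55 were below 0, and 541 of 1113 guides (48.6%) lay above 0. The median of the 11 was 0.11 lower than the median of all members, and 10 of the 11 lay below the latter. By definition 52 of the 104 members lie below it. MED1 was only just below, at -0.0125 against -0.0115. This comparison does not depend on the centring. The Mediator median itself was -0.26 without centring and -0.03 with the negative-control guides at 0. The series' other pools hold further Mediator subunits, which are not described here, so the list covers only the subunits of this pool.

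**Figure D4:**
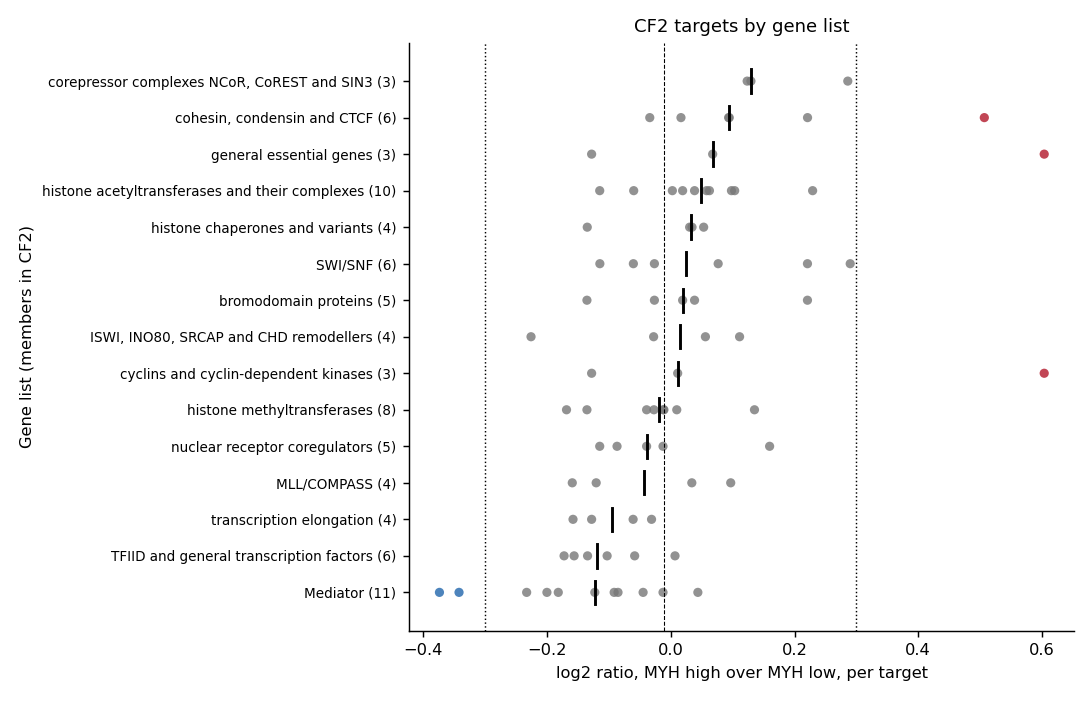
Median log2 of MYH high over MYH low for each CF2 target (horizontal axis), arranged by gene list (vertical axis, with the number of members in CF2), with black bars at list medians, a dashed line at the median of all members (-0.01) and dotted lines at 0.3 and -0.3. A gene can stand in several lists. Mediator holds both targets past the lower line (-0.34 and -0.37), NIPBL (0.51) is the coloured point of the cohesin list, and CDK1 (0.60) that of the kinase and essential lists.

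The polymerase and its general factors also lay mostly below 0. POLR2I, a small subunit of RNA polymerase II, had -0.27 ± 0.19 (SD over 10 guides), with 9 of 10 guides below 0 and 3 below every negative-control guide. Its sums were 6177 CPM in MYH high and 8080 CPM in MYH low. Of the 6 TFIID and general transcription factors, 5 were below 0 and none passed the fold. MNAT1, which assembles the kinase of TFIIH, had -0.17, GTF2A1, a subunit of TFIIA, -0.16, ERCC2, a helicase of TFIIH, -0.13, and GTF2E1, a subunit of TFIIE, -0.10. TAF7 and TAF8, subunits of TFIID, had -0.06 and 0.01. The median of the 6 was -0.12, with 19 of 59 guides (32.2%) above 0, and it was -0.025 with the negative-control guides at 0.

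Elongation factors lay on the same side. NELFE, a subunit of the pausing factor NELF, stood at -0.16, CDK9, the kinase that releases paused polymerase, at -0.13, and the PAF1 complex subunits LEO1 and CDC73 at -0.06 and -0.03. All 4 were below 0, with a median of -0.09 and 11 of 40 guides (27.5%) above 0, and the median was -0.001 with the negative-control guides at 0. CTDP1, a phosphatase of the polymerase tail, stood at -0.10 with 13 of 15 guides below 0. The 5 proteins of the RNA polymerase I and III machinery, a group drawn up after the values were seen, lay from -0.10 to -0.03, and from -0.002 to 0.07 with the negative-control guides at 0.

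Integrator, which cleaves nascent transcripts and attenuates the polymerase, had all 4 values above 0, and all 4 below 0 without centring, from -0.10 to -0.01. INTS2 and INTS5 each had 0.12, INTS4 had 0.04 and INTS14 had 0.04, and 28 of 40 guides (70.0%) were above 0. INTS5 had the most even guides of the 4, with 9 of 10 above 0 and an SD of 0.13. None passed the fold, and this group too was drawn up after the values were seen.

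Histone acetyltransferases and their complexes had a median of 0.05 over 10 members, with 8 above 0 and none past the fold, and the median was -0.08 without centring. YEATS4, a reader subunit of the NuA4/TIP60 complex, had the highest value, 0.23 ± 0.14 (SD over 10 guides), with 9 of 10 guides above 0. KAT5, the acetyltransferase of that complex, stood at 0.10 ± 0.12 with 8 of 10 guides above 0, and EP400, its ATPase, at 0.10 ± 0.28, where 1 guide was at 0.80. KAT7 and KAT8, acetyltransferases of other complexes, both had 0.06. NCOA1, a nuclear receptor coactivator, was at the lower end with -0.11 and 15 of 20 guides below 0.

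Histone methyltransferases spread around a median of -0.02 over 8 members, 2 above 0 and 6 below, and the median was 0.07 with the negative-control guides at 0. EHMT2 (G9a), which methylates histone H3 lysine 9 at silenced genes, stood at 0.14 ± 0.15 (SD over 10 guides) with all 10 guides above 0. Its partner EHMT1 stood at -0.01 with 5 of 10. At the other end, DOT1L, the methyltransferase of H3 lysine 79, had -0.17 ± 0.12 and ASH1L, of H3 lysine 36, -0.14 ± 0.10, and all 10 ASH1L guides lay below 0, the highest at -0.01. The margin is narrow, and centring on the guides outside the control sets ends it.

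In the MLL/COMPASS list, which methylates H3 lysine 4, the common subunit WDR5 had -0.16 ± 0.12 and MEN1, the MLL partner menin, -0.12, while KMT2D, the main enhancer enzyme, had 0.10 over 20 guides. HCFC1 had 0.03 over 20 guides. The histone demethylase list held KDM8 at 0.16 ± 0.17, with all 10 guides above 0, and JMJD6 at 0.06 with 7 of 10. EED, the Polycomb subunit that binds methylated H3 lysine 27, had -0.05, and DNMT1, the maintenance DNA methyltransferase, -0.01 over 20 guides that ran from -0.59 to 0.77.

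HMGA1, a protein that binds AT-rich DNA, had 0.24 ± 0.17 (SD over 8 guides) with 7 of 8 guides above 0. Its relative HMGA2 lay on the opposite side, at -0.18 ± 0.13 (SD over 10 guides), with 9 of 10 below 0. Their sums were 7614 CPM in MYH high and 7131 CPM in MYH low for HMGA1, and 7995 CPM and 9504 CPM for HMGA2. ACTR8, an actin-related subunit of the INO80 remodeller, had -0.23 ± 0.20 with 8 of 10 guides below 0. SMARCA5, the ATPase of ISWI remodellers, had -0.03, and PPARGC1B, a coactivator of mitochondrial genes, 0.16 with 9 of 10 guides above 0.

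CHAF1A, a subunit of the histone chaperone CAF-1, had a median of 0.03 and 1 guide at 0.81, which cannot be checked against a replicate. Among members the SD over guides had a lowest value of 0.09, for ACTL6A, and a highest of 0.41, for MED12L.

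For 9 of the 105 targets another pool carried guides too, with no guide ID in common. Guide sequences were not compared, so whether guides under different IDs are the same was not tested. CDK1 was the only one of these past the fold in CF2, and it stood at 0.54 ± 0.25 (SD over 10 guides) in pool KP2, where 9 of 10 guides were above 0. The other 8 lay between -0.13 and 0.08 in CF2 and between -0.15 and 0.06 in the other pool. CDK9 stood at -0.13 in CF2 and -0.08 in KP2, and CTDP1 at -0.10 and -0.11. The differences between pools ran from 0.006 (CDK11A) to 0.14 (KAT7) in size, all 9 smaller than the SD over CF2 guides of the same target. That SD describes single guides and not a difference between medians, so it is a wide bar. Of the 9, 8 had the same sign in both pools, each pool with its own 0. Some of these stood close to 0, such as CDK11A (0.01 and 0.02) and TFDP1 (0.002 and 0.05). The sign of such values depends on the point set as 0. CDK11A guides may also cut its near-identical copy CDK11B, so that its value, 0.01, is uncertain in identity, and the same holds for GTF2H2.

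**Figure D5:**
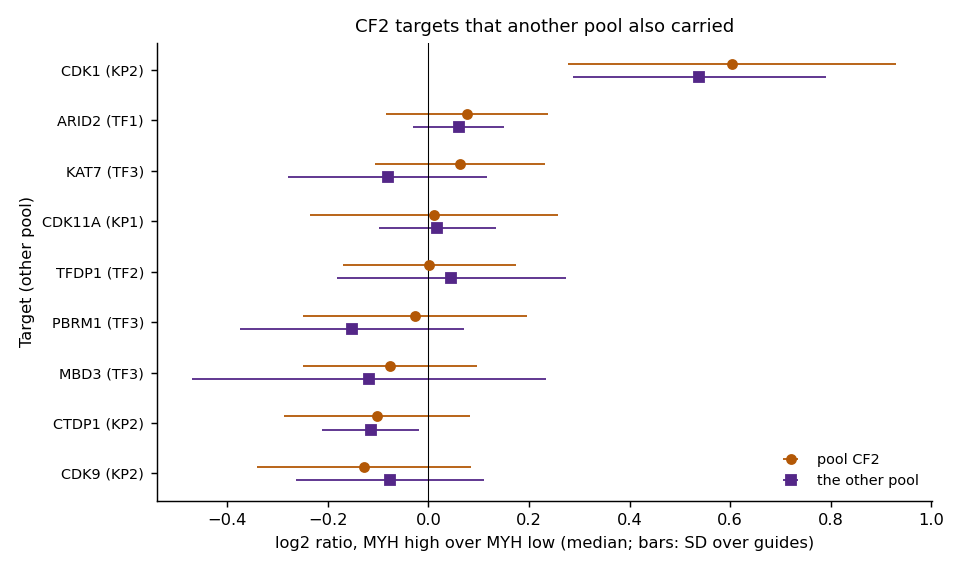
Median log2 of MYH high over MYH low (horizontal axis) for the 9 CF2 targets that another pool also carried (vertical axis, the other pool in brackets), circles for CF2, squares for the other pool, bars for the SD over guides. CDK1 is at 0.60 and 0.54, and the other 8 pairs lie between -0.15 and 0.08.

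The exon scan library of the series carried 5 CDK1 guides under other IDs, with a median of 0.24 and 4 of 5 above 0. It carried 6 CDK9 guides with a median of -0.11 and all below 0, and 4 RPA3 guides with a median of -0.03, against 0.07 in CF2. The test library had 1 CDK1 guide, at -0.001. These libraries were centred on their negative-control guides, so their values and those of CF2 do not share the same 0. NIPBL, MED26 and MED7 were in no other library used here.

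The authors' deposited table for CF2 gives each target a score, beta. In the authors' deposited table CDK1 has a beta of 0.396, NIPBL 0.310, MED7 -0.206 and MED26 -0.289. Beta in the authors' deposited table ranked the 104 targets almost as the mean over guides did (Spearman 0.9999) and as the median did with 0.953, and its slope on the mean log2 ratio was 0.694, beside a natural logarithm of 2 of 0.693. These are descriptions of values made from the same counts.

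The 2 kinds of false discovery rate in the authors' deposited table set different targets apart. By the column fdr, 5 members were under 0.05, all depleted: MED26, MED7, POLR2I, CTDP1 and NCOA1. No member was enriched under 0.05, and CDK1, NIPBL and SAP18 stood at 0.167 in the authors' deposited table. All p-values behind this column were whole multiples of 1 over the 112 targets of the table, to within 0.00048 of a whole number. By the Wald column no member was under 0.05, the lowest being 0.0775 for both MED26, depleted, and SMARCA4, enriched, in the authors' deposited table. At an unadjusted Wald p under 0.05 the authors' deposited table has 15 members enriched and 18 depleted. The same Wald column put the fusion sets, the largest differences of the pool, at 0.665 and 0.768. Neither column rests on replicate samples, since CF2 has 1 sample per population.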

How the data were processed

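Per the labels' protocols, genomic DNA was the template for a pair of PCR steps that gave the sequenced guide libraries. For every sample the authors deposited unnormalized counts of reads by guide. The submitters' processing notes name FastQC and MAGeCK, with no version. A table for pool CF2, deposited by the authors, holds a score (beta, with its z) per target. The same deposited table holds, per the file headers, a p-value and a Wald p-value, each with a false discovery rate.

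From the counts, CPM and log2 of MYH high over MYH low were computed with a pseudocount of 1 CPM and a minimum of 10 counts over both samples, which all CF2 guides passed. Ratios were centred on the median of all guides of a pool, or on the negative-control guides in libraries with at least 20 of them. The target value is the median over guides, and the fold limit is 0.3 on the log2 scale with at least 3 guides. With 1 sample per population there is no test, and the SD over guides covers neither sort nor culture. Confidence intervals are exact binomial (Clopper-Pearson). The procedure was tested on simulated counts with the same ratio for all guides of a target, which covers counting error and not the spread over guides.

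Named targets are those past the fold limit, the 12 highest and 8 lowest, those with all guides on the same side of 0, up to 4 members of each gene list farthest from 0, those that another library carries, and the control sets. Other targets named were chosen after their values were seen. The members, gene lists and fold limit were chosen with earlier results of these data known. Of the 105 target names, 104 matched a current symbol in the RefSeq gene table. The name TAZ is an older symbol shared by 2 genes, so it is not described. Guide sequences and coordinates were not used here. Alternatives were other centrings, pseudocounts, count minimums, fold limits and the mean over guides. Python 3.11.15, numpy 2.4.6, pandas 2.3.3, scipy 1.17.1 and matplotlib 3.10.9 were used.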

Additional observations from a re-analysis of the deposited data

Results flagged for a closer look

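Over the 10 pools, 1 pool other than CF2 stood apart in 5 of the 7 control sets. In pool CF3 the negative-control guides had a median log2 ratio of 1.30, PCNA 1.34, PAX3_non-fusion 1.04, MYOD1 0.52 and FOXO1_non-fusion 0.52, each farther from the nearest pool than Dixon's 95% critical value for 10 values allows. Such a rule picks about 1 in 20 groups by chance. CF2 itself stood within the range of the other pools in these 5 sets. In both fusion sets CF2 was above that range, but not by more than the same rule allows. CF3 enters the report in ranges, shares and SDs over the other pools. Without CF3 the share of their targets past the fold limit was 1.42% higher and 0.388% lower, against 1.48% and 0.569% with it, and the share with all guides above or below 0 was 2.33% and 1.03%, against 2.5% and 1.02%.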

How the results depend on the processing

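With the negative-control guides at 0, every value rose by 0.09, and 9 targets were higher and 0 lower: CDK1 (0.70), NIPBL (0.60), SMARCB1, SAP18, HMGA1, YEATS4, NCAPH, SMARCA4 and HDAC3. All guides then lay above 0 for 10 targets and below 0 for 1. Without centring, where every value fell by 0.13, 2 were higher and 10 lower, and all guides lay above 0 for 0 targets and below 0 for 15. With CPM recomputed over member guides alone, so that reads of the control sets did not count, the uncentred median of member guides was -0.02. Centred on guides outside the control sets, 1 target had all guides below 0. A fold limit of 0.2 gave 9 higher and 6 lower, a limit of 0.5 gave 2 higher and 0 lower, and the mean over guides gave 3 higher, with SAP18 added, and 1 lower, with MED7 lost. A mean weighted by counts gave 3 higher and 2 lower. List medians without centring were -0.26 (Mediator), -0.25 (TFIID and general factors), -0.23 (elongation), -0.18 (MLL/COMPASS), -0.17 (nuclear receptor coregulators), -0.15 (histone methyltransferases), -0.11 (bromodomain proteins), -0.10 (histone chaperones), -0.085 (acetyltransferases) and -0.0033 (corepressors). With the negative-control guides at 0 they were -0.025 (TFIID and general factors), -0.0011 (elongation), 0.22 (corepressors), 0.13 (histone chaperones) and 0.074 (histone methyltransferases). No value reversed past the fold limit. Over the main results and alternatives, 189 values stayed within the spread or, for counts, near the main count, and 27 did not. Counting error was below the SD over guides, and how many cells stood behind each guide was not analysed here. No paired analysis was possible because each population is 1 sample.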
